A study of Mus musculus with 6 samples.

Results

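The genes described here are 10 members of the GDF11, activin and transforming growth factor beta (TGF-beta) branch of signalling: the ligand genes Gdf11, Inhba, Inhbb, Tgfb1, Tgfb2 and Tgfb3, the antagonist gene Fst and the receptor genes Acvr2a, Acvr2b and Tgfbr2. They were chosen by name, and all probe sets whose single gene symbol in the annotation of the array is one of these names were taken, which gave 22 probe sets for 10 of the 18193 genes with a probe set of their own. RNA of whole kidneys of C57BL/6 mouse embryos at embryonic day 12.5 was measured on Affymetrix mouse expression arrays, 1 array per sample, in 3 Ret-deficient and 3 wild-type biological replicates. Ret encodes the receptor through which GDNF from the mesenchyme drives outgrowth and branching of the ureteric bud. The Ret-deficient samples are called a knockout in the design text, with no allele named, and the labels do not say from which litters the kidneys came or how many were pooled. The source field ties the knockout to the mother, while the titles, followed here, give it for the kidneys. A kidney at this stage holds ureteric bud, nephron progenitors, stroma and vessels together. In such whole organ RNA, fewer cells of a type and less RNA per cell cannot be told apart.

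Ligands of this branch are made as precursors that proteases of the furin family cut, and the mature dimers bind a type II receptor, which activates a type I receptor. GDF11 and the activins use Acvr2a and Acvr2b with the type I receptor Acvr1b, and GDF11 also uses Tgfbr1. The TGF-betas use Tgfbr2 with Tgfbr1, and all of these ligands signal through Smad2 and Smad3. Follistatin, the product of Fst, binds activins and GDF11 and keeps them from their receptors. In the mouse kidney Gdf11 is known for its place upstream of Gdnf: embryos that lack Gdf11 often form no ureteric bud and lack Gdnf in the mesenchyme. Activin A holds back branching of kidneys in culture.

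Ret, the deficient gene, read 93.3, 479.8 and 334.1 signal units in Ret-deficient replicates 1, 2 and 3, against 13315, 11042 and 10193 in wild-type replicates 1, 2 and 3. The mean signal trimmed by 2 percent at each end was 2500 on every array, so the authors had scaled the arrays to a common level. A value was called above background if it exceeded the brightest bacterial control probe set of its own array, which read 116.8 to 133.4 on the Ret-deficient and 97.2 to 186.9 on the wild-type arrays. Markers of the nephron progenitors (10 of 10 tested, 12 listed) and of renal stroma (13 of 13 tested, 14 listed) were above background on all 6 arrays. Tested markers had been kept for a bright mean over all arrays, which favours this result. Of 22 tested ureteric epithelium markers, 14 were above background in Ret-deficient replicate 1 and 22 on each other array. The median of this list against the wild-type mean was -3.25, -0.23 and -0.70 on the log2 scale in Ret-deficient replicates 1, 2 and 3, so Ret-deficient replicate 1 stands apart from the other 5 arrays. With 3 arrays a group, precision is limited, and the lowest p of an exact permutation test is 0.1. Cdh1, the E-cadherin gene of the bud epithelium, read 71.7, 3028 and 2832 in Ret-deficient replicates 1, 2 and 3, against 3715, 5361 and 4285 in wild-type replicates 1, 2 and 3, lowest by far in Ret-deficient replicate 1.

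None of the tested member probe sets passed the test between the genotypes. Transcripts of Tgfb1, Tgfb2, Tgfb3, Fst, Acvr2a, Acvr2b and Tgfbr2 were above background on all 6 arrays, while the probe sets of Gdf11, Inhba and Inhbb lay at or near background on most of them. Values were compared as log2(signal + 16) with limma over the brighter part of the array, 22519 probe sets, and 12 of the 22 member probe sets, from 7 genes, were among these. Of the 12, 0 passed an adjusted p of 0.05, where 0% of all tested probe sets passed, with adjusted p from 0.932 to 0.999. Ret itself did not pass, with a log2 difference of -5.43 (SE 0.53, limma adjusted p = 0.51). A member that did not pass is therefore not shown to be unchanged. At an unadjusted p under 0.05 there were 0 members, where 5.37% of all tested probe sets were found. The groups overlapped at all 12, where 10.7% of all tested probe sets had groups that do not overlap. The log2 differences of the 12, Ret-deficient minus wild-type, ranged from -0.54 to 0.76, with 8 above 0 and 4 below. Their median was 0.18, beside -0.01 over all tested probe sets, 48.3% of which were above 0. Centring each array on its median shifted the median of all tested probe sets by 0.11, with 65.6% of them above 0, and then 9 members were above 0 and 3 below. For 7 of the 12 the 95% interval of the difference lay within 1 log2 unit on either side of 0. For the other 5 it did not, so a change of 1 log2 unit was not excluded there. Those 5 include 1 probe set each of Tgfb2 and Acvr2b, with intervals up to 1.17 and 1.28. Other probe sets of these genes were among the 7.

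**Figure D1:**
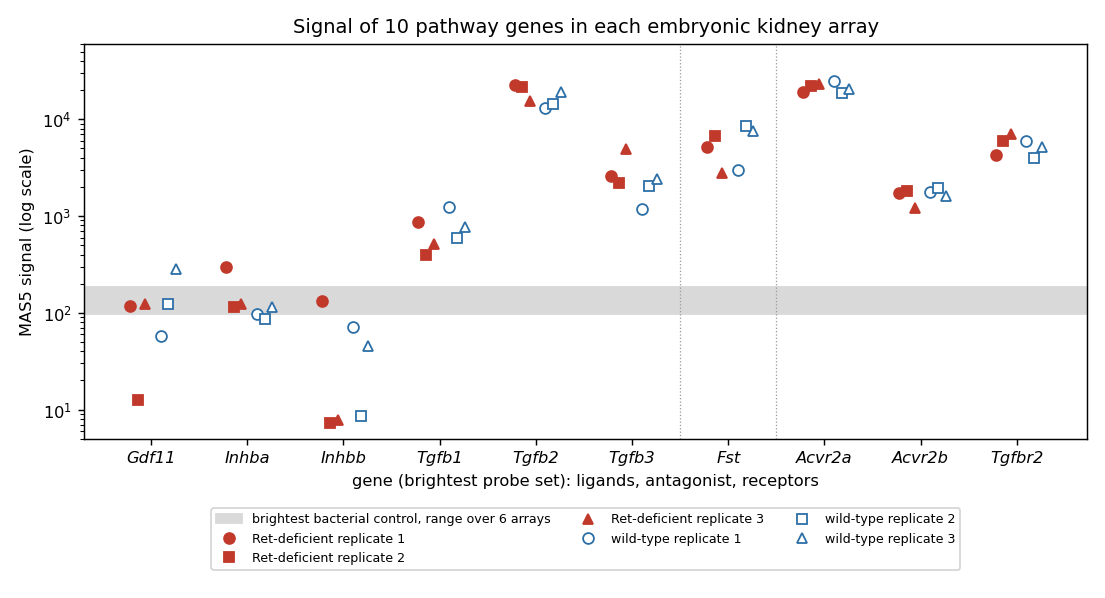
MAS5 signal (vertical axis, log scale) of the brightest probe set of each of the 10 genes, with filled red symbols for the 3 Ret-deficient arrays, open blue symbols for the 3 wild-type arrays and 1 symbol shape per replicate number. The grey band is the range of the brightest bacterial control over the 6 arrays, 97.2 to 186.9; Gdf11, Inhba and Inhbb lie in or below it on most arrays, and the red and blue symbols of every other gene overlap. Levels of different genes cannot be set against each other, since each probe set has its own response.

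Gdf11 was measured by 1 probe set, 1427723_at, close to the lower limit of the array. It read 117.6, 12.7 and 123.2 in Ret-deficient replicates 1, 2 and 3, against 57.4, 123.9 and 284.5 in wild-type replicates 1, 2 and 3. None of the 3 Ret-deficient values was above the control of its array, and 2 of the 3 wild-type values were, those of replicates 2 and 3. The groups overlapped, because wild-type replicate 1 lay below Ret-deficient replicates 1 and 3. The probe set fell below the brightness filter, and no fold change is given because every Ret-deficient value was at background. In limma over all probe sets without the filter its adjusted p was 0.975 (exact two-sided permutation p = 0.4). Whether Gdf11 RNA differed between the genotypes was therefore not detectable with this probe set.

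Gdnf, the ligand gene of Ret that lies downstream of Gdf11 in the mouse, read 1772, 1698 and 1800 in Ret-deficient replicates 1, 2 and 3, against 2777, 4442 and 3317 in wild-type replicates 1, 2 and 3. All 3 Ret-deficient arrays lay close together and below every wild-type array. Groups that do not overlap in this direction were found for 5.73% of all tested genes. In limma Gdnf differed by -0.97 log2 units (SE 0.21), which did not pass (adjusted p = 0.867). No relation between this difference and Gdf11 can be read from these arrays, because Gdf11 was at background in the Ret-deficient samples.

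The activin subunit genes were likewise dim. Inhba, whose product forms activin A, read 294.3, 115.7 and 124.8 on its brighter probe set in Ret-deficient replicates 1, 2 and 3, against 98.0, 86.4 and 116.0 in wild-type replicates 1, 2 and 3. Ret-deficient replicate 1 and wild-type replicate 3 were the arrays on which it exceeded background, and Ret-deficient replicate 1 held its highest value. That is also the array with the fewest ureteric epithelium markers above background, and the part of the kidney's cell makeup in this value was not tested. No log2 difference is given, since 4 of the 6 values were at background. The second probe set of Inhba, 1458291_at, read 15.4 to 16.5 in Ret-deficient and 5.5 to 28.2 in wild-type kidneys and was at background on all 6 arrays.

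Inhbb, whose product forms activin B, was above background on 1 array with 1 of its probe sets. Probe set 1426858_at read 131.7, 7.3 and 7.8 in Ret-deficient replicates 1, 2 and 3, against 71.5, 8.5 and 45.4 in wild-type replicates 1, 2 and 3. The first of these values was just above the control of its array, 128.2. Probe set 1426859_at, at 12.7 to 66.1 in Ret-deficient and 9.1 to 21.3 in wild-type kidneys, exceeded it nowhere. No fold change is given for Inhbb. Inha, the gene of the alpha subunit that turns activins into inhibins, was above background on all 6 arrays and read 476.9, 732.9 and 744.6 in Ret-deficient replicates 1, 2 and 3, against 662.3, 767.2 and 538.8 in wild-type replicates 1, 2 and 3. Its groups overlapped, with a log2 difference of -0.02 (limma adjusted p = 0.997). Inha was picked from the list of ligand processing genes and antagonists after its values were seen.

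Among the TGF-beta ligand genes, Tgfb2 was covered by 4 probe sets, all above background on all arrays and all with a log2 difference above 0. The brightest, 1450923_at, read 22586, 21759 and 15568 in Ret-deficient replicates 1, 2 and 3, against 13199, 14474 and 19045 in wild-type replicates 1, 2 and 3. Ret-deficient replicates 1 and 2 lay above the wild-type range and replicate 3 inside it. Its log2 difference was 0.36 (SE 0.23, 95% interval -0.19 to 0.90, limma adjusted p = 0.938).

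Probe set 1423250_a_at had the highest log2 difference of the 4, 0.54 (SE 0.27, limma adjusted p = 0.932), from 4658, 3261 and 3372 in Ret-deficient replicates 1, 2 and 3, against 2144, 2161 and 3576 in wild-type replicates 1, 2 and 3. Here wild-type replicate 3 stood apart from the other wild-type arrays and inside the Ret-deficient range. For 1450922_a_at the log2 difference was 0.26 and for 1438303_at it was 0.17, with intervals of -0.35 to 0.87 and -0.25 to 0.60. All 4 probe sets had their highest Ret-deficient value in replicate 1. They measure the same RNA on the same arrays, so their common direction does not count as 4 independent results.

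Tgfb3, with 1 probe set, had the highest log2 difference among the 12 tested probe sets. It read 2615, 2190 and 4974 in Ret-deficient replicates 1, 2 and 3, against 1191, 2031 and 2394 in wild-type replicates 1, 2 and 3. Ret-deficient replicate 3 was far above the other arrays, and Ret-deficient replicate 2 lay below wild-type replicate 3, so that the groups overlapped. The log2 difference was 0.76 (SE 0.39, 95% interval -0.16 to 1.68), which did not pass in limma (adjusted p = 0.937; exact two-sided permutation p = 0.2). Without Ret-deficient replicate 3 it was 0.41, and with array quality weights 0.45.

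Ret-deficient replicate 3, in which Tgfb3 was highest, also had the highest value of 7 of the 8 tested macrophage markers, and Lyz2 was highest in wild-type replicate 1. The 8 macrophage markers summed to 70484 signal units in Ret-deficient replicate 3, to 37194 and 25575 in Ret-deficient replicates 1 and 2, and to 20275 to 31253 in wild-type kidneys. All 8, of 12 listed, were above background on all 6 arrays, and they had been kept for a bright mean over all arrays. The 13 tested stroma markers summed to 179048 to 197458 in Ret-deficient and to 151769 to 172349 in wild-type kidneys. Such sums are led by the brightest probe sets. The median of the macrophage markers against the wild-type mean was 0.47, -0.19 and 1.46 log2 units in Ret-deficient replicates 1, 2 and 3. For the stroma markers it was 0.39, 0.20 and 0.23. Of the 13, Foxd1, Fbln5, Lox, Dcn, Tcf21 and Meis2 were also highest in Ret-deficient replicate 3, and the others were highest elsewhere. Among the 10 tested nephron progenitor markers, Itga8, Sall1, Wt1 and Cited1 were highest there and the others elsewhere. The part of these cell types in the Tgfb3 values was not tested.

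Tgfb1 was the 1 TGF-beta ligand gene with a difference below 0. Its brighter probe set, 1420653_at, read 871.3, 396.0 and 514.1 in Ret-deficient replicates 1, 2 and 3, against 1238, 594.8 and 768.8 in wild-type replicates 1, 2 and 3. Replicates 2 and 3 of the Ret-deficient group lay below the wild-type range, and replicate 1 lay inside it. For this probe set the log2 difference was -0.54 (SE 0.37, 95% interval -1.42 to 0.33, limma adjusted p = 0.947). It was -0.26 without wild-type replicate 1, the array with the highest value, and -0.85 without Ret-deficient replicate 1. With array quality weights it was -0.22. The other probe set, 1445360_at, did not exceed background on any array.

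**Figure D2:**
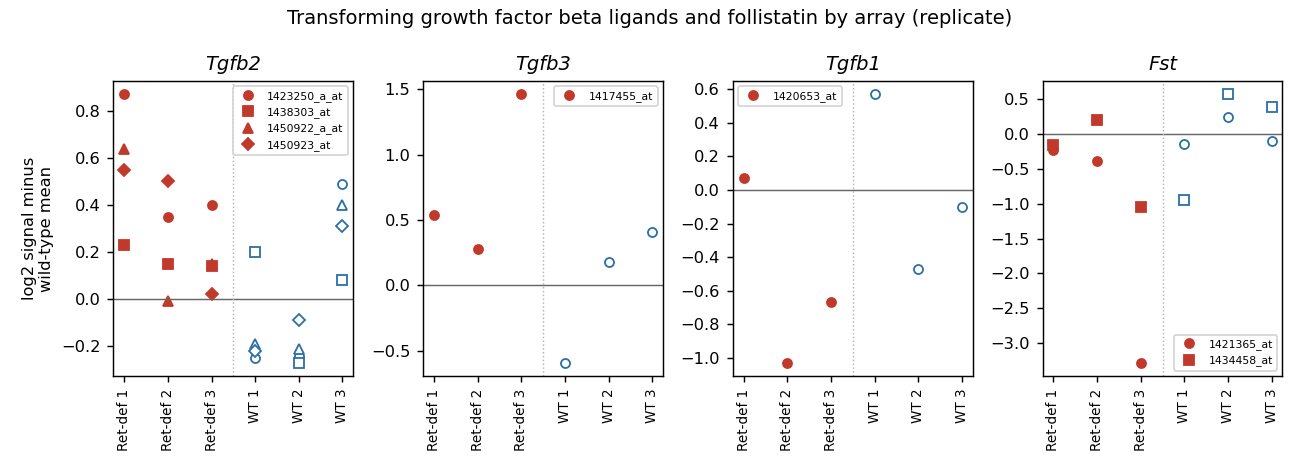
Log2 signal of each array minus the wild-type mean of the same probe set, for Tgfb2 (4 probe sets), Tgfb3, the brighter probe set of Tgfb1, and Fst (2 probe sets), with 1 symbol shape per probe set, filled red for Ret-deficient and open blue for wild-type replicates; each panel has its own vertical scale. Tgfb2 is highest in Ret-deficient replicate 1, Tgfb3 is highest (1.46) and both Fst probe sets are lowest (-1.04 and -3.28) in Ret-deficient replicate 3.

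On the brighter Fst probe set, follistatin RNA varied more within the groups than between them. The brighter Fst probe set, 1434458_at, read 5209, 6680 and 2795 in Ret-deficient replicates 1, 2 and 3, against 2972, 8566 and 7550 in wild-type replicates 1, 2 and 3. The low arrays were 1 of each group, Ret-deficient replicate 3 and wild-type replicate 1, and the groups overlapped. Its log2 difference was -0.33 (SE 0.49, 95% interval -1.48 to 0.83, limma adjusted p = 0.974). It was 0.03 without Ret-deficient replicate 3 and -0.80 without wild-type replicate 1.

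The dimmer Fst probe set, 1421365_at, lay below the brightness filter and read 350.6, 312.3 and 28.3 in Ret-deficient replicates 1, 2 and 3, against 373.1, 492.4 and 383.7 in wild-type replicates 1, 2 and 3. On this probe set the groups did not overlap, which held for 10.2% of all probe sets without the filter. Ret-deficient replicate 3 was at background. Here the log2 difference was -1.30 (95% interval -3.31 to 0.71, limma without the filter, adjusted p = 0.975; exact two-sided permutation p = 0.1). The probe sets of Fst thus share their low value in Ret-deficient replicate 3, while wild-type replicate 1 was low on 1 of them. The within-group spread of the brighter probe set, 0.74 on the log2 scale, was the highest of the 12 tested, beside a median of 0.29 over all tested probe sets.

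None of the tested probe sets of the type II receptor genes passed. Acvr2a, which encodes a receptor of activins and GDF11, read 19210, 22170 and 22993 on its brighter probe set in Ret-deficient replicates 1, 2 and 3, against 24842, 18858 and 20478 in wild-type replicates 1, 2 and 3. The Ret-deficient values all fell within the wild-type range, and the within-group spread of 0.17 was the lowest of the 12 tested. The log2 difference was 0.01 (SE 0.18, 95% interval -0.42 to 0.43, limma adjusted p = 0.999). The dimmer probe set gave -0.04, with an interval of -0.57 to 0.49.

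Acvr2b, the gene of the related receptor, read 1711, 1814 and 1215 in Ret-deficient replicates 1, 2 and 3, against 1792, 1966 and 1619 in wild-type replicates 1, 2 and 3, with its brightest probe set, 1419140_at. Ret-deficient replicate 3 was the 1 array outside the wild-type range. The log2 difference was -0.20 (SE 0.21, 95% interval -0.69 to 0.29, limma adjusted p = 0.959), and -0.02 without Ret-deficient replicate 3. A second probe set, 1439856_at, gave 0.30 (SE 0.41), the opposite sign, from 750.1, 984.5 and 340.9 in Ret-deficient replicates 1, 2 and 3, against 413.4, 453.1 and 716.7 in wild-type replicates 1, 2 and 3. Ret-deficient replicate 3 was lowest on both, and the probe sets disagree on the other arrays. The other probe set, 1440525_at, was at background in all Ret-deficient samples.

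Tgfbr2, the type II receptor gene of the TGF-betas, read 4324, 5909 and 7021 in Ret-deficient replicates 1, 2 and 3, against 5900, 3997 and 5132 in wild-type replicates 1, 2 and 3. Ret-deficient replicate 3 held the highest value and wild-type replicate 2 the lowest, with Ret-deficient replicate 1 inside the wild-type range. The log2 difference was 0.19 (SE 0.25, 95% interval -0.40 to 0.77, limma adjusted p = 0.967), and 0.03 without Ret-deficient replicate 3. Of its other 2 probe sets, 1422019_at was at background on all 6 arrays and 1425444_a_at on 3 of them.

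**Figure D3:**
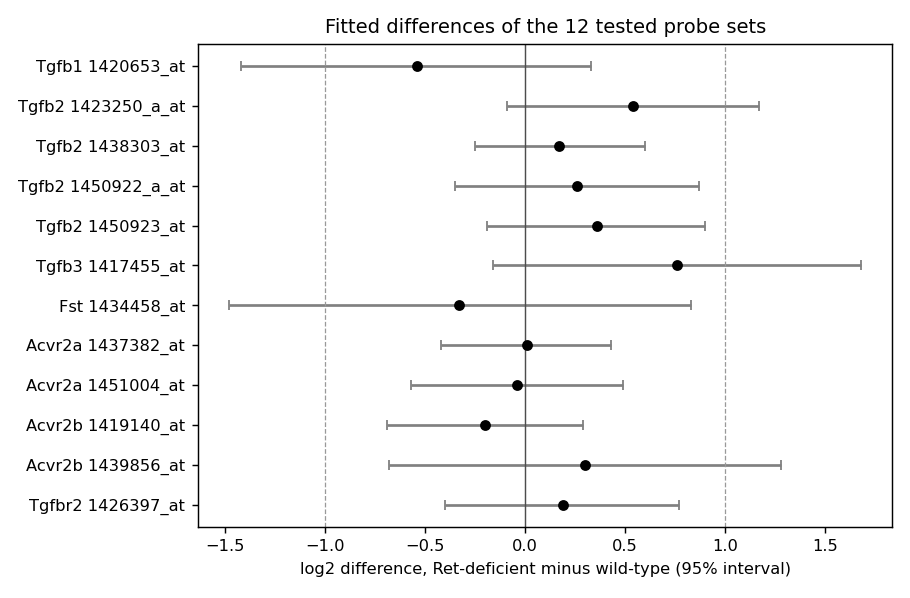
Fitted log2 difference, Ret-deficient minus wild-type (horizontal axis), of the 12 tested member probe sets; points are limma estimates from 3 arrays per group, bars are 95% intervals, and dashed lines mark 1 log2 unit on either side of 0. Every bar crosses 0, and 7 of the 12 stay between the dashed lines.

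The Ret-deficient samples departed from the wild-type range at partly shared members. In Ret-deficient replicate 1, 6 of the 12 tested probe sets lay above the highest wild-type array and 0 below the lowest, where 27.6% and 28.8% of all tested probe sets did. In replicate 2 it was 3 above and 1 below, where 26.6% and 29.8% of all tested probe sets did. In replicate 3 it was 2 above and 4 below, where 26.5% and 25.8% of all tested probe sets did. The 6 high values of replicate 1 include the 4 Tgfb2 probe sets, which share their gene. The within-group spread exceeded the median of all tested probe sets at 7 of the 12.

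The type I receptors and co-receptors showed no difference that passed. Of 11 genes on this list (Acvr1, Acvr1b, Acvr1c, Acvrl1, Bambi, Eng, Itgav, Itgb6, Itgb8, Tgfbr1 and Tgfbr3), 8 were tested and 0 passed. Of the 8, 2 were higher and 6 lower in Ret-deficient kidneys, with a median log2 difference of -0.08, beside 0.003 over all 11581 tested genes. Acvr1b, a type I receptor gene of activins and GDF11, read 4987, 6456 and 6458 in Ret-deficient replicates 1, 2 and 3, against 6702, 8062 and 8559 in wild-type replicates 1, 2 and 3. Its groups did not overlap, which held in the same direction for 5.73% of all tested genes. Acvr1b had a log2 difference of -0.38 (SE 0.19, limma adjusted p = 0.932). Tgfbr1, which GDF11 and the TGF-betas use, had -0.09 (SE 0.18) on its brightest probe set and 0.42 (SE 1.16) on the other tested one. The co-receptor gene Tgfbr3 had -0.21 (SE 0.26), the pseudoreceptor gene Bambi had -0.05 and Acvr1 had 0.59 (SE 0.35) on its brightest probe set and 0.03 (SE 0.15) on the other tested one.

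The intracellular transducers came next in the pathway. Of 19 genes of Smads and their regulators 18 were tested and 0 passed, 11 higher and 7 lower, with a median log2 difference of 0.05. Smad2 and Smad3, which carry the signal of this branch, had log2 differences of 0.11 (95% interval -0.40 to 0.61) and -0.08 (95% interval -0.43 to 0.28). Smad4, their common partner, had 0.04 (95% interval -0.40 to 0.49). The inhibitory Smad7, itself a target of the pathway, averaged 10142 ± 1305 in Ret-deficient and 9090 ± 3364 in wild-type kidneys (mean signal ± SD, n = 3 each), a log2 difference of 0.21 (SE 0.28), with 0.54 (SE 0.36) on its other probe set. Skil, which encodes a repressor of Smads, had -0.17 (SE 0.16).

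Genes that process, store or block the ligands were measured for 18 of 31, of which 13 were higher and 5 lower, and 0 passed the adjusted threshold. At an unadjusted p under 0.05 there were 3 higher, where 3.03% of all tested genes were found, and 1 lower, where 2.52% were found. The groups did not overlap at 6 higher genes, where this held for 6.02% of all tested genes. They also did not overlap at 1 lower gene, where this held for 5.73% of all tested genes. The median log2 difference was 0.08.

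The lower gene was Wfikkn1, whose product binds GDF11 and myostatin. It read 1106, 802.3 and 748.9 in Ret-deficient replicates 1, 2 and 3, against 1520, 1593 and 1331 in wild-type replicates 1, 2 and 3, all Ret-deficient arrays lying below all wild-type arrays. The log2 difference was -0.75 (SE 0.20, limma adjusted p = 0.867). The 3 higher genes were Dcn, which encodes the TGF-beta binding proteoglycan decorin and is also on the stroma marker list, the serine protease gene Htra3, and Bmp1, whose protease frees several ligands of this family. Their log2 differences were 1.20 (SE 0.28), 1.36 (SE 0.42) and 0.55 (SE 0.19), with a limma adjusted p of 0.867 for each.

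Of the precursor proteases, Furin had a log2 difference of 0.02 (95% interval -0.38 to 0.42). Pcsk5, which cuts the GDF11 precursor in the mouse, gave different answers by probe set. Its brightest, 1437339_s_at, averaged 5957 ± 1693 in Ret-deficient and 5874 ± 1356 in wild-type kidneys (n = 3 each), and probe set 1424605_at averaged 1574 ± 172 against 765 ± 406, a log2 difference of 1.16 (SE 0.38, limma adjusted p = 0.867). Probe set 1438248_at had -0.66 (SE 0.48). Fstl3, a relative of Fst, fell below the filter and was above background on 4 of 6 arrays.

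Of 35 genes known as targets of TGF-beta or activin in various cells, 29 were tested, 23 higher and 6 lower in Ret-deficient kidneys, and 0 passed. Their median log2 difference was 0.17, beside 0.003 over all tested genes, of which 50.5% were higher. At an unadjusted p under 0.05 there were 4, all higher, where 3.03% of all tested genes were found higher and 2.52% lower. Tgfbi, a matrix gene named for its induction by TGF-beta, read 32032, 27653 and 33456 in Ret-deficient replicates 1, 2 and 3, against 24806, 22794 and 23303 in wild-type replicates 1, 2 and 3. Its groups did not overlap, which held in the same direction for 6.02% of all tested genes, and the log2 difference was 0.39 (SE 0.16, limma adjusted p = 0.921). All 4 Tgfbi probe sets had a positive log2 difference, 0.25 to 0.59.

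The other 3 were the collagen gene Col1a2 and the transcription regulators Jun and Id1, with log2 differences of 0.61 (SE 0.22), 0.98 (SE 0.36) and 1.14 (SE 0.44) and limma adjusted p values of 0.914, 0.918 and 0.921. The groups of Col1a2 did not overlap, which held in the same direction for 6.02% of all tested genes. Those of Jun and Id1 overlapped, with Ret-deficient replicate 3 inside the wild-type range of each. Jun responds to many stimuli and Id1 mainly to BMPs, so these are not markers of this branch alone. Ccn2, another target, read 7840, 787.9 and 1746 in Ret-deficient replicates 1, 2 and 3, against 3855, 707.3 and 1501 in wild-type replicates 1, 2 and 3. Its spread within both groups was wider than the difference, 0.46 (SE 0.92). The stroma marker list, which shares Col1a1 and Col3a1 with the targets, had a median log2 difference of 0.25, 10 of its 13 tested members being higher, and its part in the values of the targets was not tested.

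**Figure D4:**
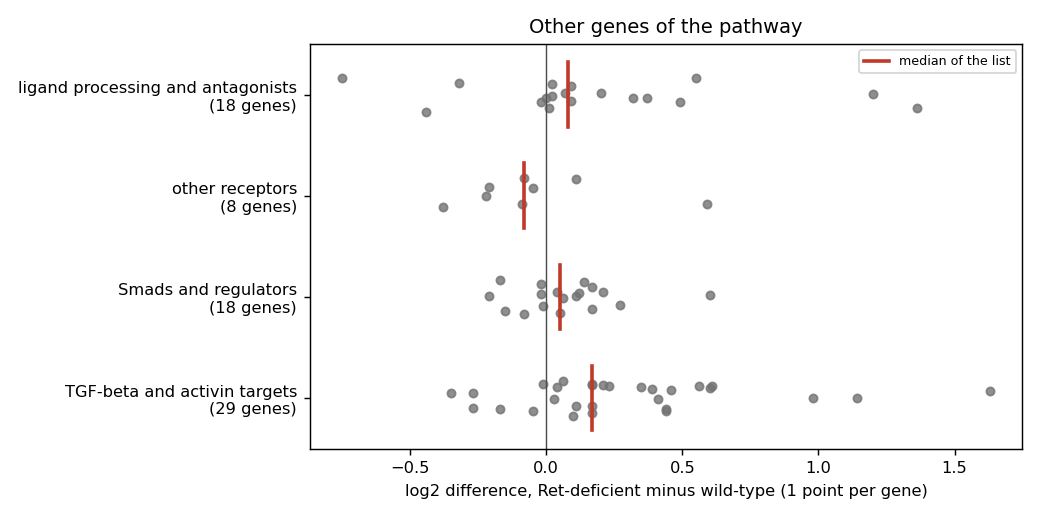
Log2 difference, Ret-deficient minus wild-type (horizontal axis), of the tested genes of 4 pathway lists, with 1 grey point per gene (its brightest probe set) and a red bar at the median of each list; vertical scatter within a list has no meaning and some genes are on 2 lists. The medians lie between -0.08 and 0.17, and none of the points passed the adjusted threshold.

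Genes with the pattern most like a member over the 6 arrays were found by the root mean square gap between log2 values, each gene centred on its own mean. For Tgfb3 the nearest of the tested genes were Particl (gap 0.08), Efna3 (0.11), Mrln (0.13), Ggact (0.13) and Hk3 (0.14). Efna3, which encodes an ephrin, read 2643, 1954 and 3935 in Ret-deficient replicates 1, 2 and 3, against 1103, 1697 and 2096 in wild-type replicates 1, 2 and 3, and like Tgfb3 was highest in Ret-deficient replicate 3. For Fst they were Dusp5 (0.22), Gng3 (0.26), Cap2, Mapk4 and Hoxa7 (0.27 each). Dusp5, which encodes a phosphatase of ERK kinases, read 4649, 4729 and 2328 in Ret-deficient replicates 1, 2 and 3, against 1793, 5147 and 4854 in wild-type replicates 1, 2 and 3, low on the same arrays as Fst. Tgfb3 and Fst were chosen for this after their values were seen. For Gdf11 the nearest was Kctd14 (gap 0.35), which read 212.6 to 1588.1. Gdf11 itself was near background, so this likeness says little about its RNA.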

How the data were processed

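The deposited values are MAS5 signal intensities on a linear scale, per the submitters' processing notes, and the authors' scaling to a common trimmed mean was seen in the values. No source used here gives the version, scaling target or presence calls. Symbols came from the platform annotation, with current RefSeq names looked up by gene ID, which changed 0 member probe sets. The build behind the array is not named, so no coordinates are printed.

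From the deposited intensity values log2(value + 16) was computed. Medians of the arrays differed by 0.42 log2 units, under the limit of 0.5 set for centring. Control probe sets (64) were dropped. The brightness filter kept the 22519 of 45101 probe sets whose mean log2 signal reached the median. This filter was first applied to mean linear signal and was changed after those results had been seen; the linear form is kept as an alternative added after seeing the data. A gene was represented by its tested probe set with the highest mean. Groups came from the sample titles. The fit used limma 3.58.1 under R 4.3.3, through lmFit and eBayes without covariates, with p adjusted by Benjamini-Hochberg over all tested probe sets. Members below the filter were taken from the same fit without it. The limma p values weigh the difference of group means against the spread within the groups, moderated over all tested probe sets. The labels do not say whether that spread is between litters or pools.

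Members and lists were chosen with earlier results of these data known. All member probe sets were described, with a fixed set of pathway genes and at most 4 genes of each list by smallest p. The genes most like Gdf11 were part of this rule, and Tgfb3 and Fst were added. A gene of the fixed set that has no value here is not reported here. In simulated data for this comparison, on 22519 probe sets, limma found 23.9% of 67 probe sets shifted by 1 log2 unit. The shares were 55.2% of 67 for a shift of 2 and 93.9% of 66 for a shift of 4, and false calls numbered 6. On the real arrays 0 of 22519 tested probe sets reached the threshold. Even Ret, at -5.43 log2 units, missed it (limma adjusted p = 0.51). The simulated shares may therefore overstate what the real comparison could find.

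Results were recomputed with a pseudocount of 1 and of 64, without the filter, with the top 30 percent by brightness, quantile normalization, median centring, an intensity trend, array weights, a replicate block, each array left out in turn, and other probe sets of a gene.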

Additional observations from a re-analysis of the deposited data

How the results depend on the processing

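No member passed an adjusted p of 0.05 under any alternative run. The smallest limma adjusted p was 0.475 over the 124 values that follow, which take 1 representative probe set per gene through the alternatives. Other probe sets of a gene entered these values only from the fit without the brightness filter or as part of a mean. Of 124 member values under the alternatives 116 kept their sign. The exceptions were Fst without Ret-deficient replicate 3 (0.03), Acvr2a without Ret-deficient replicate 2 or wild-type replicate 3 (-0.02 each), without Ret-deficient replicate 3 (-0.04), without wild-type replicate 2 (-0.08), with the mean of its probe sets (-0.01) and with its dimmer probe set (-0.04), and Acvr2b with probe set 1439856_at (0.30). With 1 array left out Fst ranged from -0.80 to 0.03 and Acvr2a from -0.08 to 0.12, Acvr2b from -0.31 to -0.02, Tgfbr2 from 0.03 to 0.38, Tgfb1 from -0.85 to -0.26, Tgfb2 from 0.25 to 0.53 and Tgfb3 from 0.41 to 1. Array quality weights gave -0.22 for Tgfb1, 0.45 for Tgfb3, -0.64 for Fst and 0.34 for Tgfbr2. Gdf11, Inhba and Inhbb were left out of these values because none of their probe sets passed the brightness filter, most of their values being at background.

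In limma the members at an unadjusted p under 0.05 numbered 0. With 1 array left out they numbered 0 to 1 (Tgfb1 without Ret-deficient replicate 1, probe set 1439856_at of Acvr2b without Ret-deficient replicate 3, probe set 1423250_a_at of Tgfb2 without wild-type replicate 3), where 3.72% to 9.5% of all tested probe sets were found. With the replicate block they numbered 2, Tgfb1 and Tgfb3, with limma adjusted p of 0.982 and 0.985, where 5.07% of all tested probe sets were found. Nothing in the labels ties a replicate number to a litter or day. The deviations of same-numbered arrays from their group means correlated at 0.03, -0.04 and -0.12. Those of differently numbered arrays correlated at -0.19 to 0.21. With 3 arrays a group, such correlations cannot show whether the numbers pair the samples. The brightness filter on mean linear signal, with which the first results were made before it was changed, tested 13 member probe sets; the added one was the dimmer Fst probe set (limma adjusted p = 0.938), 0 members passed, and 1208 probe sets had an unadjusted p under 0.05. Members whose groups do not overlap numbered 0, 1 with the linear filter (Fst, where 10.8% of all probe sets had such groups), 1 without the brightness filter (Fst, where 10.2% had), and 0 to 4 with 1 array left out, where 16.2% to 28.6% of all probe sets had such groups.

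Over all tested probe sets 0 passed, and 1, Ret, passed with median centring, with an intensity trend and without Ret-deficient replicate 1 (0 to 1 with 1 array left out). The 1209 at an unadjusted p under 0.05 became 2265 without the filter, 723 with the top 30 percent and 2533 with array quality weights, and ranged from 838 to 2140 with 1 array left out (2140 without Ret-deficient replicate 3). With array quality weights the median of the ligand processing and antagonist list was 0.26 and that of the targets 0.38. With median centring that of the Smads was 0.17. With 1 array left out the medians ranged from 0.04 to 0.29 for ligand processing and antagonists, -0.23 to 0.05 for other receptors, 0.01 to 0.07 for Smads, 0.08 to 0.33 for targets and -1.99 to -0.57 for ureteric epithelium. Signal over background limits Gdf11, Inhba and Inhbb.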
